A study of Mus musculus with 18 samples.

Results

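A set of 9 genes of the transforming growth factor beta (TGF-beta) pathway was followed through the reprogramming of mouse embryonic fibroblasts (MEFs): the ligands *Tgfb1*, *Tgfb2*, and *Tgfb3*, the latency protein *Ltbp1*, the receptors *Tgfbr1*, *Tgfbr2*, and *Tgfbr3*, and the intracellular mediators *Smad3* and *Smad7*. They were taken by name. All 9 were among the 9435 genes of the knockdown expression table and the 9472 genes of the overexpression table. They carry 291 of the 661941 annotated splicing events, of which 275 were covered in every library of both datasets. The RNA-seq libraries numbered 18, with 2 for each of 9 groups.

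TGF-beta ligands are secreted as latent complexes bound to a latent TGF-beta binding protein such as LTBP1, which anchors them in the extracellular matrix. Once released, a ligand binds the type II receptor TGFBR2, helped by the co-receptor TGFBR3 (betaglycan), and TGFBR2 activates the type I receptor TGFBR1, which phosphorylates SMAD2 and SMAD3, while SMAD7 is induced by the signal and dampens it. In fibroblasts the pathway maintains matrix and contractile genes, and it is a known barrier to reprogramming because it opposes the shift from a mesenchymal to an epithelial state.

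The cells were primary MEFs of the genotype Collagen-OKSM, M2rtta+, in which doxycycline switches on *Oct4*, *Sox2*, *Klf4*, and *Myc* together (OSKM) to drive reprogramming. In the knockdown dataset, non-infected cells at day 0 (NI) were compared with cells at day 12 of doxycycline and LIF that carried a scrambled shRNA (shSCR), 1 of 2 shRNAs against the polyadenylation factor gene *Cpsf3* (shCPSF3#1 and shCPSF3#2), or 1 of 2 against the RNA-binding protein gene *Hnrnpul1* (shUL1#1 and shUL1#2). In the overexpression dataset, NI cells at day 0 were compared with day 12 cells carrying the retroviral vector alone (Empty) or the splicing factor TIA1 with a T7 tag (T7-TIA1). Every infected culture was sorted for GFP at day 2 and then grown on irradiated feeder cells, so that feeder RNA and reprogramming-cell RNA cannot be told apart at day 12, and infection, doxycycline, feeders, and time all separate NI from the day 12 groups. One field of the labels gives another day than the titles for the shUL1#2 libraries and for the NI libraries of the overexpression dataset, and the day of the titles was used. Nothing in the labels says that the 2 libraries of a group came from separate cultures or animals, so p-values measure the spread between these libraries, which may be technical.

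Positions in mm10 (GENCODE M21 coordinates) are as follows: *Tgfb1* (ENSMUSG00000002603) at chr7:25687002-25705077, *Tgfb2* (ENSMUSG00000039239) at chr1:186622792-186705989, *Tgfb3* (ENSMUSG00000021253) at chr12:86056745-86079041, *Ltbp1* (ENSMUSG00000001870) at chr17:75005568-75392512, *Tgfbr1* (ENSMUSG00000007613) at chr4:47353222-47414931, *Tgfbr2* (ENSMUSG00000032440) at chr9:116084293-116175360, *Tgfbr3* (ENSMUSG00000029287) at chr5:107106570-107289629, and *Smad3* (ENSMUSG00000032402) at chr9:63646767-63757994. The ninth gene is *Smad7* (ENSMUSG00000025880).

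The sequences of 3 alternatively spliced segments of *Tgfbr2* and *Ltbp1* are shown because their values are described below. Each is printed 5′ to 3′ on the gene's strand with the alternative segment in capitals and 30 coding bases on either side, as joined in the annotated transcript. The *Tgfbr2* exon (chr9:116158271-116158345, minus strand, exon 2 of Tgfbr2-202) adds 25 codons to the extracellular part of the receptor, near its amino terminus. The *Ltbp1* exon of 126 nt (chr17:75348744-75348869, plus strand, exon 26 of Ltbp1-210) adds 42 codons, and the *Ltbp1* segment of 159 nt (chr17:75276396-75276554, plus strand, exon 13 of Ltbp1-210) adds 53 codons through the choice of the upstream acceptor. All 3 lengths are multiples of 3 and so keep the reading frame.
*Tgfbr2* 75-nt exon: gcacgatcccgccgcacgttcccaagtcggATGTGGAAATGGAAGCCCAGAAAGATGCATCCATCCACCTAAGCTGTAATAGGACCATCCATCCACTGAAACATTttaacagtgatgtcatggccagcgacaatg
*Ltbp1* 126-nt exon: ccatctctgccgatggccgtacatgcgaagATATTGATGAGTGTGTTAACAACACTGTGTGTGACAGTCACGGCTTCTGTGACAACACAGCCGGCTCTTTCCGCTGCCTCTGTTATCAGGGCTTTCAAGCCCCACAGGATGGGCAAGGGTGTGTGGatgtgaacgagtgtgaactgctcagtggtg
*Ltbp1* 159-nt segment: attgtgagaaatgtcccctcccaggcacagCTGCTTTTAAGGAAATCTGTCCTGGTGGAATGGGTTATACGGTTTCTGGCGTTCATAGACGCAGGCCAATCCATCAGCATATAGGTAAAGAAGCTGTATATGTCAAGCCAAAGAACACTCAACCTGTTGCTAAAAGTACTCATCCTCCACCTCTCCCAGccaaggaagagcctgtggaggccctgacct

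Expression was read as scaled CPM, the deposited CPM relative to a library size scaled for each library, and fold changes are differences of log2(scaled CPM + 1), which understates the change of low genes. With the smallest step of the values taken as 1 read, each library held between 98.9e6 and 109e6 reads on the listed genes. The target of each manipulation moved as labelled: *Cpsf3* had 86.7 and 118 scaled CPM in shSCR against 38.6, 50, 42.4, and 77.1 with its shRNAs, *Hnrnpul1* 156 and 185 against 55.7, 85.8, 38.7, and 63.7, and *Tia1* 85.6 and 77 in Empty against 613 and 469 in T7-TIA1. The 2 libraries of a group differed by more than 2-fold at 13 genes for Empty, 36 for T7-TIA1, and 46 for NI of the knockdown dataset, but at 515 for NI of the overexpression dataset, 499 for shSCR, and 341 to 784 for the 4 knockdown groups, and the values of the 9 genes are given without single libraries where these change a call. Of 8 fibroblast markers 7 were listed, and their summed level was 15686 to 18565 in NI, 5309 to 5703 in shSCR, 9868 to 18338 over the knockdown groups, 17865 to 35037 in NI of the overexpression dataset, and 5020 to 5895 in Empty and T7-TIA1. Macrophage markers moved too: *Lyz2*, *Cd68*, and *Csf1r*, 3 of 5 genes, summed to 9.57 to 10.6 in NI, 171 to 300 in shSCR, and 259 to 1814 in the knockdown groups, while *Ptprc* and *Adgre1* were not listed. Epithelial keratins (*Krt8*, *Krt18*, *Krt19*, 3 of 10 epithelial markers) summed to 49.9 to 62.4 in NI, 365 to 627 in shSCR, and 46.2 to 276 in the knockdown groups. Of 5 endothelial and 5 muscle markers *Tek* and *Des* alone were listed, in the knockdown table: *Tek* had 1.15 to 1.51 in NI, 25 to 29.7 in shSCR, 18.3 to 63.9 with the *Cpsf3* shRNAs, and 41.9 to 143 with those against *Hnrnpul1*, and *Des* 54.1 to 54.8, 13.8 to 15.4, 6.13 to 20.3, and 8.12 to 36.6. None of 11 pluripotency or 3 keratinocyte markers was listed. The part of these cell types in the results below was not tested.

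Among the 9 genes, *Tgfb3* and *Ltbp1* stood highest in day 0 MEFs and the receptors *Tgfbr3* and *Tgfbr2* in day 12 cells. In bulk RNA a lower level can stand for fewer cells that express a gene or for less RNA in each cell, which cannot be told apart. Per kilobase of exon, NI cells of the knockdown dataset held 114 scaled CPM of *Tgfb3*, 44.3 of *Ltbp1*, 22.2 of *Smad7*, 16.7 of *Smad3*, 13.5 of *Tgfbr2*, 11.0 of *Tgfbr1*, 8.58 of *Tgfb2*, 8.51 of *Tgfb1*, and 6.72 of *Tgfbr3*. Only the neighbours *Tgfb2* and *Tgfb1* overlapped between their libraries in that order. In shSCR the order began with *Tgfbr3* (48.0 per kilobase), *Tgfbr2* (24.2), and *Tgfb3* (16.9), and ended with *Tgfb1* (4.35) and *Tgfb2* (3.94), whose libraries overlapped. The overexpression dataset began in the same way, with *Tgfb3* (110) and *Ltbp1* (39.1) in NI and *Tgfbr3* (27.2) and *Tgfbr2* (23.1), which overlapped, in Empty. In T7-TIA1, *Tgfbr2* (23.1) stood first, followed by *Tgfbr3* (18.4) and *Tgfb3* (15.4), whose libraries overlapped.

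**Figure D1:**
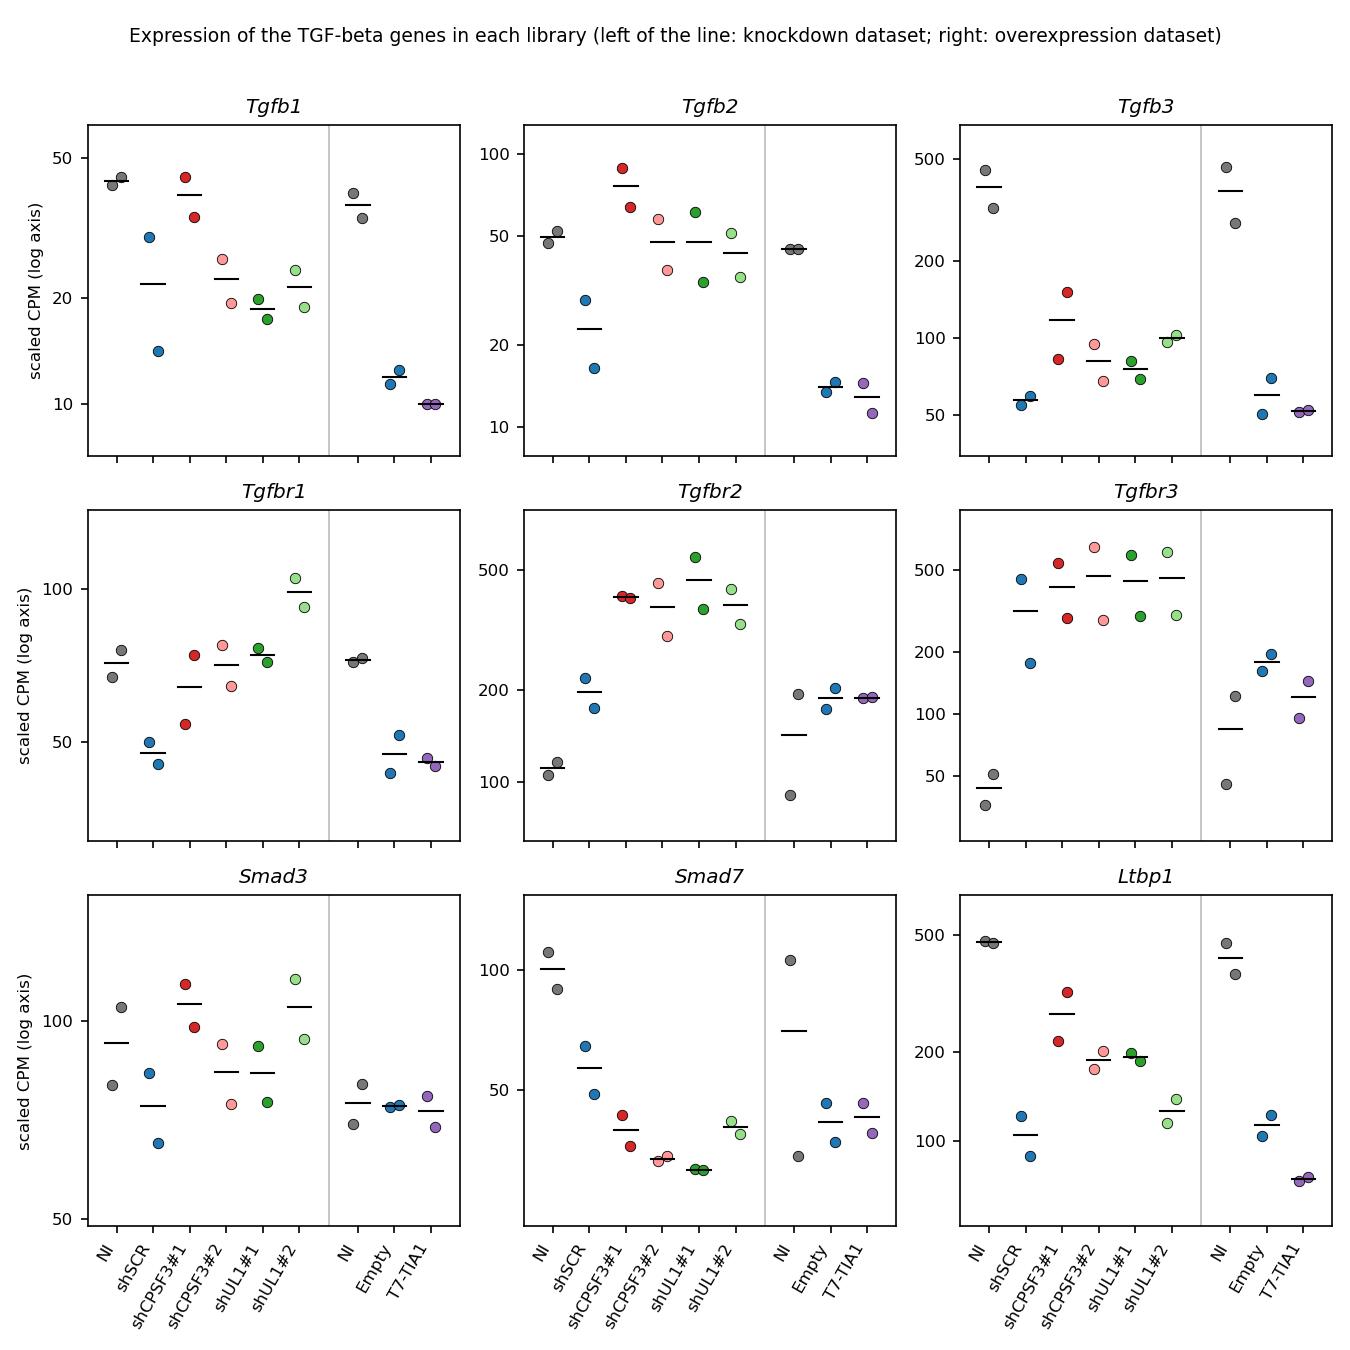
Scaled CPM of each of the 9 genes in every library on log axes, with 1 point per library, a line at the mean of each group, and a vertical line between the knockdown and overexpression datasets. Across the groups of each dataset, *Tgfb3* and *Ltbp1* are highest in NI, and the group mean of *Tgfbr3* is lowest in NI. *Tgfbr2* is higher in all 8 knockdown libraries (303 to 554) than in shSCR (175 and 220).

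At day 12 of OSKM induction, shSCR cells had lower levels of the 3 ligands, *Ltbp1*, *Tgfbr1*, and *Smad7* than NI cells and higher levels of *Tgfbr2* and *Tgfbr3*. Of the 9 genes 8 changed by limma at an adjusted p under 0.05 (Benjamini-Hochberg over all listed genes), 2 upward and 6 downward, where 44.5% of all listed genes were called, 22.5% upward and 22% downward. The median log2 fold change of the 9 genes was −0.82, and that of all listed genes 0.0005. The libraries of the 2 groups did not overlap for 8 of the 9 genes, as for 77% of all genes. Over all genes 2122 rose and 2075 fell, and plain CPM, which shifted the median of all genes by 0.13 on the log2 scale, gave 2447 and 1540.

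*Tgfb3*, the most abundant ligand of these fibroblasts, had 453 and 321 scaled CPM in NI against 54.8 and 59.6 in shSCR. It fell by 2.72 ± 0.29 (SE) on the log2 scale, or 6.58-fold (limma, adjusted p = 0.000279). *Tgfb1*, the ligand most studied in fibrosis, had 41.7 and 44.1 in NI and 29.8 and 14.1 in shSCR, a log2 change of −1.03 ± 0.32 (adjusted p = 0.0305). *Tgfb2*, whose latent form lacks the integrin-binding motif of the other two, had 47.2 and 52.2 against 29.1 and 16.5, a change of −1.14 ± 0.38 (adjusted p = 0.0399). All 3 ligands were lower in both shSCR libraries than in either NI library, and the second shSCR library held the lower value for *Tgfb1* and *Tgfb2*. *Ltbp1*, which tethers the latent ligands, had 477 and 470 in NI and 121 and 88.4 in shSCR, and fell by 2.18 ± 0.22 (4.55-fold, adjusted p = 0.000185).

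Among the receptors, *Tgfbr3* had 36.5 and 51.4 scaled CPM in NI and 452 and 176 in shSCR, a rise of 2.68 ± 0.63 on the log2 scale (6.39-fold, adjusted p = 0.0097) in which the shSCR libraries were far apart. Without the first shSCR library the change of *Tgfbr3* was 2.00 and without the second 3.35. *Tgfbr2*, the ligand-binding kinase, had 105 and 116 in NI and 220 and 175 in shSCR, a log2 change of 0.83 ± 0.26 (adjusted p = 0.032). *Tgfbr1*, the kinase that activates the SMADs, had 67.2 and 75.9 against 50 and 45.3, a change of −0.58 ± 0.17 (adjusted p = 0.0263, but 0.094 with plain CPM). Both receptor kinases therefore moved beyond the spread of their libraries, in opposite directions. *Smad7*, the inhibitory SMAD, had 111 and 89.7 against 64.4 and 48.8 and fell by 0.82 ± 0.17 (adjusted p = 0.00499). *Smad3*, the receptor-activated SMAD, had 79.9 and 105 against 83.3 and 65.2, with overlapping libraries (−0.31 ± 0.21, adjusted p = 0.259).

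The calls of *Tgfb3*, *Smad7*, and *Ltbp1* held without any single one of the 4 libraries. *Tgfbr1* and *Tgfbr2* lost theirs without each of the 4. *Tgfb1* and *Tgfb2* lost theirs without either NI library or the second shSCR library, and *Tgfbr3* without the first NI or first shSCR library. With single libraries left out, the log2 change ran from −1.54 to −0.51 for *Tgfb1* and from −1.53 to −0.75 for *Tgfb2*. The members called were 3 and 4 without the first and second NI library and 5 and 4 without the first and second shSCR library, and the calls over all genes were 2613 and 2745 without the first and second NI library in place of 4197.

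The Empty vector cells of the other dataset gave the same direction for every member that was called there. *Tgfb1*, *Tgfb2*, *Tgfb3*, *Tgfbr1*, and *Ltbp1* fell, 5 of 9 genes, where 46.5% of all listed genes were called, 22.8% upward and 23.6% downward. The median log2 fold change was −0.60 for the members and 0.01 for all genes, and 6 members had libraries that did not overlap, against 74.3% of all genes. In scaled CPM, *Tgfb3* had 465 and 281 in NI and 50.5 and 69.6 in Empty, *Ltbp1* 468 and 368 against 104 and 122, and *Tgfb1* 39.8 and 33.7 against 11.4 and 12.5. Their log2 changes were −2.59 ± 0.27 (adjusted p = 0.00196), −1.87 ± 0.15 (0.00126), and −1.54 ± 0.13 (0.00127) by limma. *Tgfb2* had 45.1 in both NI libraries and 13.4 and 14.6 in Empty (−1.62 ± 0.15, adjusted p = 0.00142). *Tgfbr1* had 71.7 and 73.1 against 43.4 and 51.5 (−0.60 ± 0.12, adjusted p = 0.0109). The 3 ligands and *Ltbp1* were well below NI in both Empty libraries. All 5 genes kept their direction without the first and without the second NI library. The log2 changes were −2.22 and −2.95 for *Tgfb3*, −1.70 and −2.04 for *Ltbp1*, and −1.43 and −1.66 for *Tgfb1*. They were −1.62 and −1.62 for *Tgfb2* and −0.62 and −0.59 for *Tgfbr1*. Plain CPM gave 3143 genes upward and 1554 downward in place of 2164 and 2237, with the median of all genes at 0.19.

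The 2 NI libraries of that dataset split at the other members. *Tgfbr3* had 45.8 and 123 in NI and 162 and 195 in Empty (log2 change 1.22 ± 0.47, adjusted p = 0.0807). With the replicate number as a block *Tgfbr3* was called (limma, adjusted p = 0.0219), where 46.4% of all genes were. *Tgfbr2* had 90.5 and 195 against 174 and 204, and *Smad7* 106 and 34 against 46.2 and 36.9, neither past the threshold (adjusted p = 0.275 and 0.42). The first NI library resembled NI of the knockdown dataset at these 3 genes, and the second lay nearer to, or within, the day 12 values. Without the second NI library the log2 changes were 1.05 for *Tgfbr2*, 1.93 for *Tgfbr3*, and −1.33 for *Smad7*. Without the first NI library *Tgfbr2* (−0.045) and *Smad7* (0.27) turned in direction, with *Tgfbr3* at 0.52. *Smad3* had 69.7 and 80.3 in NI and 73.9 and 74.6 in Empty (log2 change −0.01 ± 0.12, adjusted p = 0.948; 0.17 with plain CPM). *Tgfbr1* lost its call without the first Empty library, at a log2 change of −0.48.

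**Figure D2:**
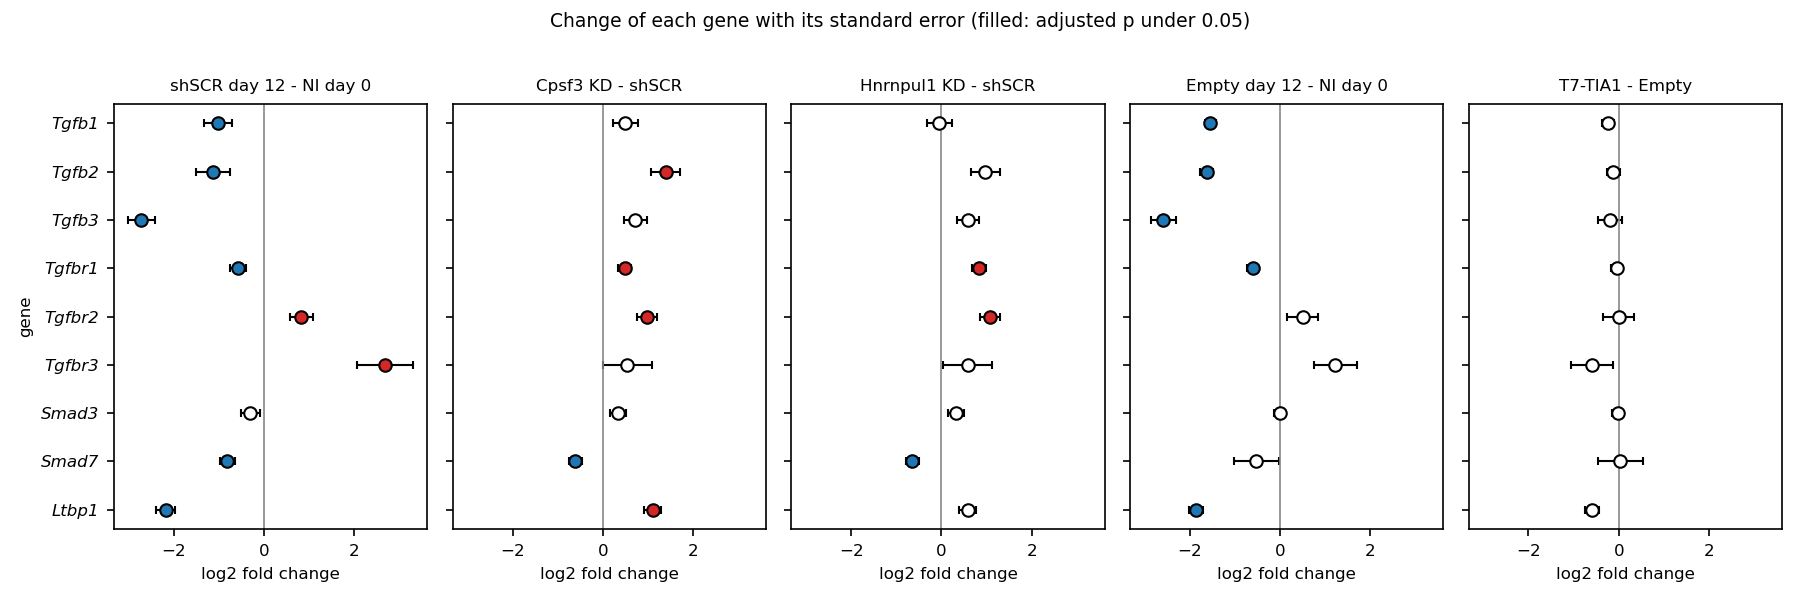
Log2 fold change of each gene with its standard error in 5 comparisons, with filled points where limma gave an adjusted p under 0.05 (red higher, blue lower). *Tgfb3* and *Ltbp1* fell by 2.72 and 2.18 in shSCR, *Tgfbr1* and *Tgfbr2* are filled to the right for both knockdowns, and no point is filled for T7-TIA1.

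Knockdown of *Cpsf3* raised *Ltbp1*, *Tgfb2*, *Tgfbr2*, and *Tgfbr1* at day 12 and lowered *Smad7*. Of the 9 genes 4 rose and 1 fell, where 26.1% of all genes were called, 16.7% upward and 9.35% downward. The median log2 fold change was 0.54 for the members and 0.03 for all genes, and 6 members had libraries that did not overlap with those of shSCR, against 37.9% of all genes. Both this comparison and that of *Hnrnpul1* use the same shSCR libraries, which were also the day 12 side above, so a chance deviation in shSCR enters all 3.

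*Ltbp1* had 218 and 321 scaled CPM with shCPSF3#1 and 175 and 202 with shCPSF3#2 against 121 and 88.4 in shSCR, a rise of 1.10 ± 0.19 on the log2 scale (limma, adjusted p = 0.0063). *Tgfb2* had 88.7, 64.1, 57.9, and 37.7 against 29.1 and 16.5 (1.39 ± 0.33, adjusted p = 0.019). Its log2 change ran from 1.00 to 1.78 with single libraries left out. Both genes were higher in all 4 knockdown libraries, and *Ltbp1* stayed below its NI level in each. *Tgfbr2* had 409 and 403 with shCPSF3#1 and 454 and 303 with shCPSF3#2 against 220 and 175 (0.98 ± 0.22, adjusted p = 0.0172), which is above NI as well as above shSCR. *Tgfbr1* had 54.2, 74.2, 77.4, and 64.4 against 50 and 45.3 (0.48 ± 0.15, adjusted p = 0.0465, but 0.115 with plain CPM). *Smad7* had 43.2, 36.1, 33, and 34 against 64.4 and 48.8 (−0.61 ± 0.14, adjusted p = 0.0189). The inhibitory SMAD was thus lower in all 4 libraries in which the 2 receptor kinases were higher.

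The other members did not pass the threshold. *Tgfb3* had 83.2, 151, 95, and 68 scaled CPM against 54.8 and 59.6, apart from shSCR in every library but with an adjusted p of 0.0676. *Tgfb1* (0.50 ± 0.27), *Tgfbr3* (0.54 ± 0.54), and *Smad3* (0.34 ± 0.18) had libraries that overlapped with shSCR. Single libraries also decided against a call: *Tgfb1* was called without the first shSCR library (1.01, adjusted p = 0.0291), and *Tgfb3* without the first shCPSF3#1 library (0.93, 0.0227) or the second shCPSF3#2 library (0.84, 0.0467). Libraries of the same number deviated together at day 12 of the knockdown dataset (r = 0.674 to 0.949 between groups), and with the replicate number as a block *Tgfb3* was called (limma, adjusted p = 0.0469), where 49.8% of all genes were. *Ltbp1* (adjusted p = 0.0596) and *Tgfbr2* (0.140) lost their calls without the second shSCR library, *Smad7* without the first (0.0981), *Tgfb2* without the second shSCR or first shCPSF3#2 library (up to 0.164), and *Tgfbr1* without either shSCR library, the second shCPSF3#1 library, or the first shCPSF3#2 library (up to 0.246). The members called were 1 without the second shSCR library, where 591 of all genes were called, 3 without the first shCPSF3#2 library, where 1505 were, in place of 2458, and 4 to 6 without each of the other 4. With only the groups compared in the fit, none of the 5 calls held (adjusted p 0.0653 to 0.152).

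*Hnrnpul1* knockdown raised the 2 receptor kinases and lowered *Smad7*, 3 of 9 genes, where 10.5% of all genes were called, 7.31% upward and 3.15% downward. The median log2 fold change was 0.59 for the members and 0.004 for all genes, and the libraries of 5 members did not overlap with shSCR, against 37.8% of all genes. *Tgfbr1* had 76.5 and 71.7 scaled CPM with shUL1#1 and 105 and 92 with shUL1#2 against 50 and 45.3 in shSCR (0.83 ± 0.15, limma, adjusted p = 0.0157). *Tgfbr2* had 554, 371, 432, and 332 against 220 and 175 (1.07 ± 0.22, adjusted p = 0.0247). *Smad7* had 31.5, 31.4, 41.7, and 38.7 against 64.4 and 48.8 (−0.64 ± 0.14, adjusted p = 0.0302). In each case all 4 knockdown libraries lay on one side of both shSCR libraries.

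*Tgfb2* (61.3, 33.9, 51.6, and 35.4 against 29.1 and 16.5) and *Tgfb3* (81.5, 69.5, 96.5, and 103 against 54.8 and 59.6) were also above shSCR in all 4 libraries, without passing the threshold (adjusted p = 0.0967 and 0.171). With the replicate number as a block *Tgfb2* (limma, adjusted p = 0.00976) and *Ltbp1* (0.0458) were called, where 29.3% of all genes were. *Ltbp1* had 198 and 186 with shUL1#1 and 115 and 138 with shUL1#2 against 121 and 88.4, so that 1 library of shUL1#2 lay within the shSCR values (0.59 ± 0.19, adjusted p = 0.0839). *Tgfb1* (−0.04 ± 0.27), *Tgfbr3* (0.58 ± 0.54), and *Smad3* (0.33 ± 0.18) overlapped with shSCR. No member was called without either shSCR library or without the first library of either shRNA, where 158 to 306 of all genes were called in place of 987, and *Tgfbr1* and *Tgfbr2* alone remained called without the second library of either shRNA. With only the groups compared in the fit none of the 3 calls held (adjusted p 0.0519 to 0.0927).

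Fitted against each other, the knockdowns of *Cpsf3* and *Hnrnpul1* differed at none of the 9 genes by limma (adjusted p 0.266 to 0.978), where 0.0424% of all genes were called (0.0106% upward). An unadjusted p under 0.05 was reached by 12.8% of all genes and by 3 of the 9 members: *Ltbp1*, higher with the *Cpsf3* shRNAs (0.52 ± 0.15), *Tgfb1* (0.54 ± 0.22), and *Tgfbr1*, lower with them (−0.35 ± 0.12). The libraries of the 2 knockdowns overlapped for all 9 genes, and 3.14% of all genes had libraries that did not.

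Overexpression of T7-TIA1 changed no member relative to Empty by limma (all adjusted p = 0.999), as was true of all 9472 genes (0% called). An unadjusted p under 0.05 was reached by 393 of all genes and by 1 member, *Ltbp1*. *Ltbp1* had 73 and 75.3 scaled CPM in T7-TIA1 against 104 and 122 in Empty (log2 change −0.60 ± 0.15). *Tgfbr3* had 95.7 and 145 against 162 and 195 (−0.59 ± 0.47), and *Tgfb1* 10 and 9.97 against 11.4 and 12.5 (−0.23 ± 0.13). These 3 genes had libraries that did not overlap, against 51.9% of all genes, a share no larger than the background. The receptor kinases, which were higher with both knockdowns, had 46.5 and 44.9 (*Tgfbr1*) and 189 and 190 (*Tgfbr2*) in T7-TIA1 against 43.4 and 51.5 and 174 and 204 in Empty.

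The wider pathway was described with 5 lists of 113 genes that hold no member, of which 92 were in the knockdown table and 90 in the overexpression table. In shSCR against NI, 14 of the 92 genes rose and 37 fell, with a median log2 fold change of −0.55, where 22.5% of all listed genes were called upward and 22% downward. In Empty against NI, 7 of 90 rose and 49 fell, with a median of −0.84, where 22.8% and 23.6% of all genes were called upward and downward. Against shSCR, *Cpsf3* knockdown raised 31 and lowered none (median 0.62), and *Hnrnpul1* knockdown raised 14 and lowered none (median 0.48), where 16.7% and 7.31% of all genes were called upward and 9.35% and 3.15% downward. With only the groups compared in the fit, these rises numbered 8 and 0, and of the target genes 5 and 0. With the replicate number as a block, 45 genes were higher and 3 lower with *Cpsf3* knockdown and 37 higher and 1 lower with *Hnrnpul1* knockdown, where 49.8% and 29.3% of all genes were called. At an unadjusted p under 0.05, 1 and 2 of the genes were lower. No gene of the lists was called by limma in T7-TIA1 against Empty (median −0.06) or between the 2 knockdowns (median 0.17), where 2 and 8 were higher and 3 and 3 lower at an unadjusted p under 0.05, as were 4.15% and 12.8% of all genes in either direction.

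**Figure D3:**
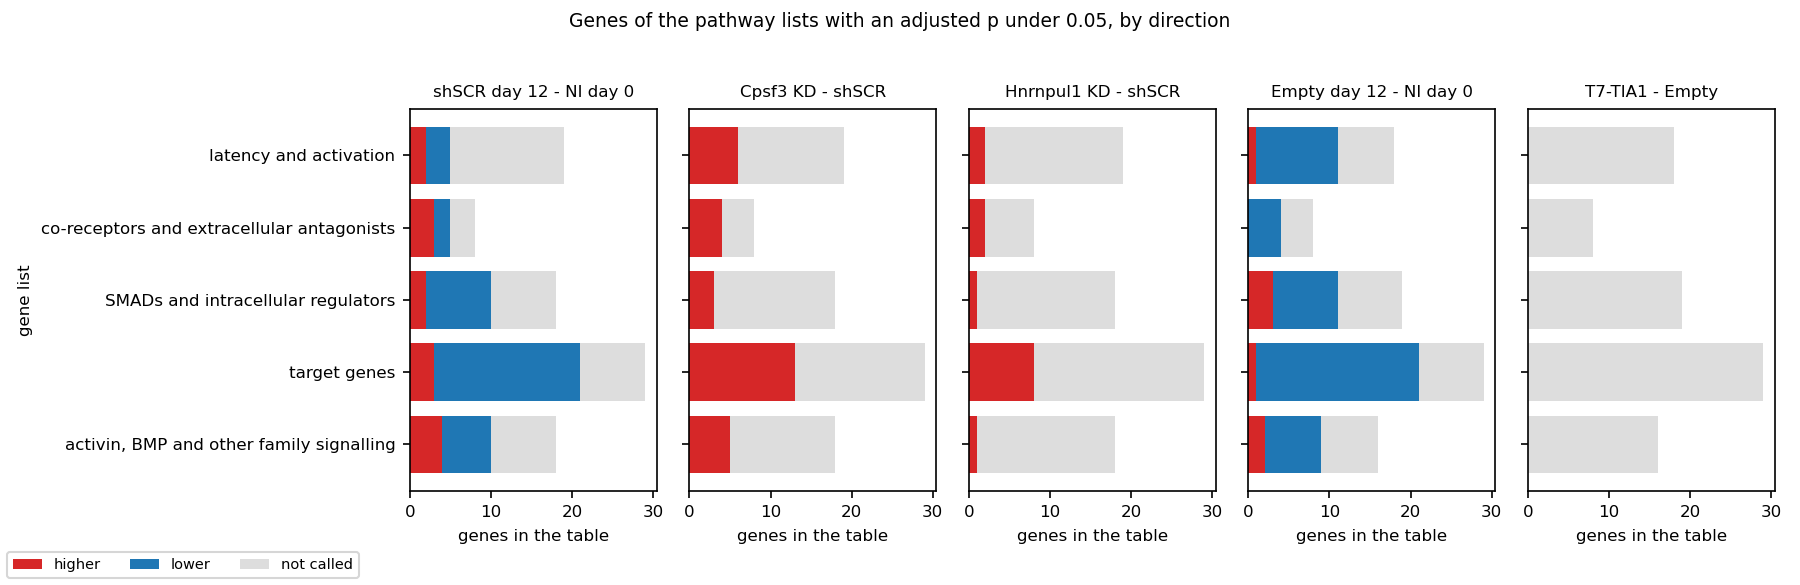
Number of listed genes of each of the 5 pathway lists called higher (red), called lower (blue), or not called (grey) by limma at an adjusted p under 0.05, with 1 panel per comparison. Target genes are mostly blue in shSCR and Empty against NI (18 and 20 of 29), and the called genes of both knockdowns are all red.

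The target genes, which TGF-beta is known to induce in fibroblasts and other mesenchymal cells, are the longest of the 5 lists. In shSCR 18 of 29 fell and 3 rose (median −1.56), and in Empty 20 fell and 1 rose (median −2.0), where 22% and 23.6% of all genes fell and 22.5% and 22.8% rose. *Acta2*, smooth muscle actin, had 5130 and 4558 in NI and 505 and 327 in shSCR (−3.57 ± 0.46, limma, adjusted p = 0.000655), and fell by 4.10 ± 0.26 in Empty, as did the contractile gene *Tagln* (−3.75 ± 0.32) and the collagen cross-linking enzyme gene *Lox* (−4.14 ± 0.25). The list did not move as one: *Tgfbi*, a matrix protein gene named for its induction by TGF-beta, rose by 3.99 ± 0.44 in shSCR, and *Spp1*, osteopontin, rose by 4.10 ± 0.36.

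With *Cpsf3* knockdown 13 of the 29 targets rose and none fell by limma (median 0.72), and with *Hnrnpul1* knockdown 8 rose and none fell (median 0.62), where 16.7% and 7.31% of all genes rose. These numbers were 5 and 0 with only the groups compared in the fit, and the 8 became 15 with the replicate block. At an unadjusted p under 0.05, 0 and 1 of them were lower. *Postn*, periostin, had 652 and 588 scaled CPM in NI, 62.1 and 167 in shSCR, 434 to 1717 with the *Cpsf3* shRNAs, and 538 to 717 with those against *Hnrnpul1*. It rose by 2.86 ± 0.54 (limma, adjusted p = 0.00908) and 2.66 ± 0.54 (0.0226). *Col1a1* had 5158 and 6395 in NI, 1099 and 1228 in shSCR, 3400 to 6528 with the *Cpsf3* shRNAs (2.01 ± 0.27, adjusted p = 0.00322), and 2669 to 5182 with those against *Hnrnpul1* (1.55 ± 0.27, adjusted p = 0.0149). Both matrix genes were higher in all 8 knockdown libraries than in either shSCR library. *Col3a1* was not low in shSCR (1021 and 1251 against 758 and 1309 in NI) and had 5024 to 9296 and 3467 to 13130 in the 2 knockdowns (2.54 ± 0.41 and 2.48 ± 0.41). The transcription factor gene *Zeb2* rose by 2.00 ± 0.50 with *Cpsf3* knockdown and the N-cadherin gene *Cdh2* by 1.72 ± 0.26 with *Hnrnpul1* knockdown. *Acta2* (0.25 ± 0.40 and 0.04 ± 0.40) was not called in either knockdown. *Col1a1* and *Col1a2* also stand among the fibroblast markers, of which 3 rose with *Cpsf3* knockdown and 2 with *Hnrnpul1* knockdown.

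Genes of latency and activation encode the proteins that store the ligands and release them. Of 19 listed, 2 rose and 3 fell in shSCR: the protease gene *Mmp2* rose by 2.54 ± 0.44, while the protease gene *Plau* (−2.11 ± 0.24) and the integrin genes *Itgb1* (−1.93 ± 0.21) and *Itgav* (−1.22 ± 0.39) fell. In Empty, 10 of 18 fell and 1 rose, among them *Ltbp2* (−2.03 ± 0.19), the fibrillin gene *Fbn1* (−1.87 ± 0.56), *Lrrc32* (−1.77 ± 0.14), which displays latent ligand at the cell surface, and *Itgb1* (−1.70 ± 0.23). *Cpsf3* knockdown raised 6 (*Fbn1* 1.50 ± 0.45, *Plat* 1.46 ± 0.33, *Plau* 1.38 ± 0.21, and *Mmp14* 1.21 ± 0.34 were the largest) and *Hnrnpul1* knockdown raised 2, *Fbn2* (1.32 ± 0.32) and *Plau* (1.19 ± 0.21). The 5 of 19 genes called in shSCR are a smaller share than the 44.5% of all genes, and the 2 called with *Hnrnpul1* knockdown a share close to the 10.5% of all genes. The 6 of 19 raised by *Cpsf3* knockdown compare with 26.1% of all genes called, 16.7% of them upward. In Empty 46.5% of all genes were called, 22.8% upward and 23.6% downward. The medians of the list were −0.47 in shSCR, 0.79 and 0.62 in the knockdowns, and −1.26 in Empty.

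Of 8 co-receptors and extracellular antagonists, 3 rose and 2 fell in shSCR (median 0.80), where 44.5% of all genes were called. The small leucine-rich proteoglycan genes *Lum* (4.14 ± 0.54) and *Fmod* (3.13 ± 0.36) and the type I receptor gene *Acvrl1* (1.47 ± 0.24) rose, while the ligand trap gene *Vasn* (−1.20 ± 0.33) fell. *Lum* had 3.85 and 5.18 scaled CPM in NI, 167 and 54.2 in shSCR, 444 to 965 with the *Cpsf3* shRNAs (2.98 ± 0.47), and 351 to 811 with those against *Hnrnpul1* (2.30 ± 0.47), so that it was lowest in the day 0 fibroblasts and highest in the knockdowns. *Cpsf3* knockdown also raised *Bgn* (1.55 ± 0.41), *Vasn* (1.07 ± 0.28), and *Tgfbrap1* (0.58 ± 0.14), 4 genes in all (median 0.85), and *Hnrnpul1* knockdown raised *Lum* and *Acvrl1* (0.98 ± 0.20; median 0.92), where 26.1% and 10.5% of all genes were called. In Empty 4 fell and none rose (median −0.14): *Vasn* (−1.99 ± 0.14), *Bgn* (−1.95 ± 0.21), *Bambi* (−1.32 ± 0.22), a decoy receptor gene, and *Tgfbrap1* (−0.39 ± 0.11), a share of called genes close to the 46.5% of all genes. With the replicate number as a block *Tgfbrap1* was not called there (limma, adjusted p = 0.0555).

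The next list holds the other SMADs and their intracellular regulators. In shSCR 2 of 18 rose and 8 fell (median −0.46), where 22.5% of all genes rose and 22% fell, led by the feedback inhibitor gene *Pmepa1* (−2.62 ± 0.31), the inhibitory SMAD gene *Smad6* (−1.50 ± 0.26), *Fkbp1a* (−1.30 ± 0.12), whose product holds the type I receptor inactive, and the ubiquitin ligase gene *Smurf2* (−0.89 ± 0.15). In Empty 3 of 19 rose and 8 fell (median −0.27; 22.8% and 23.6% of all genes), again with *Pmepa1* (−2.46 ± 0.34), *Smad6* (−1.51 ± 0.16), and *Fkbp1a* (−1.03 ± 0.15), and with *Smad9* (−1.32 ± 0.42). *Pmepa1*, *Smad6*, and *Smad7* all encode inhibitors, and signalling itself was not measured. *Cpsf3* knockdown raised 3, *Pmepa1* (1.07 ± 0.27), the SMAD repressor gene *Ski* (0.67 ± 0.18), and *Smad2* (0.34 ± 0.08; median of the list 0.11), and *Hnrnpul1* knockdown raised 1, *Smad5* (0.63 ± 0.13; median 0.06), smaller shares than the 26.1% and 10.5% of all genes called there.

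Of the activin, BMP, and other family genes, 4 of 18 rose and 6 fell in shSCR (median −0.50) and 2 of 16 rose and 7 fell in Empty (median −0.71), where 44.5% and 46.5% of all genes were called. *Inhba*, which encodes an activin subunit, fell in both (−2.76 ± 0.72 and −3.85 ± 0.57). The other activin subunit gene *Inhbb* rose in shSCR (2.92 ± 0.43), as did the activin receptor gene *Acvr1b* (2.11 ± 0.51), and the BMP receptor gene *Acvr1* (−1.15 ± 0.13) fell in Empty. *Gdf11* fell in Empty (−1.73 ± 0.23) and rose with *Cpsf3* (1.67 ± 0.25) and *Hnrnpul1* (1.23 ± 0.25) knockdown. It was the 1 gene of the list called in the latter (median 0.53), while *Cpsf3* knockdown raised 5 (median 0.58), among them *Fstl1* (1.59 ± 0.41), and *Bmp1* (1.50 ± 0.40). These 1 and 5 of 18 genes compare with 10.5% and 26.1% of all genes called.

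The counts over all 5 lists moved with single libraries as the members did. In every setting named here, the number of calls over all listed genes fell or rose with them, with the ranges given further below. These counts alone therefore do not separate a shift of the pathway from a shift over all genes. In shSCR against NI the genes called downward numbered 21 and 22 without the first and second NI library and 25 without the second shSCR library. Those raised by *Cpsf3* knockdown were 10 without the second shSCR library and 16 without the first shCPSF3#2 library, and those raised by *Hnrnpul1* knockdown were 2 and 0 without the first and second shSCR library, 6 without the first shUL1#1 library, and 4 without the first shUL1#2 library. In Empty against NI those called downward were 61 and 55 without the first and second NI library and 30 without the first Empty library, and those called upward were 18 without the second NI library and 4 without either Empty library. Of the target genes, those called downward in shSCR were 11 and 10 without the first and second NI library and 12 without the second shSCR library, and 12 in Empty without the first Empty library. Those raised by *Cpsf3* knockdown were 7 without the second shSCR library, and those raised by *Hnrnpul1* knockdown were 0 without either shSCR library, 5 without the first shUL1#1 library, and 3 without the first shUL1#2 library.

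Splicing was read as percent spliced in (PSI), the share of reads that include a segment. Most of the 275 covered events, which are 94 exons, 93 introns, 53 acceptors, and 35 donors, with each side of an acceptor or donor choice counted as an event of its own, were near 0 or 100: 8 events had a mean PSI from 10 to 90 in each dataset, 3 in *Tgfbr2*, 3 in *Ltbp1*, and 2 in *Tgfbr1*. The median absolute difference between groups ran from 0.09 to 0.14 PSI over the 5 comparisons and from 0.12 to 0.14 for all covered events. Between 252 and 266 of the 275 events moved by less than 2 PSI. The rule for differential splicing, a difference of at least 10 PSI with the nearest libraries at least 5 PSI apart, was met by 1 event in T7-TIA1 against Empty, where 0.272% of all covered events met it, and by none in the other 4 comparisons. Of all events, 1.18% met it in shSCR against NI, 0.396% with *Cpsf3* knockdown, 0.334% with *Hnrnpul1* knockdown, and 0.658% in Empty against NI. A read-level test was limma on the log2 ratio of inclusion to exclusion reads weighted for counting error. It called 7 of 239 tested member events in shSCR against NI and 2 with *Cpsf3* knockdown. These shares are close to the 2.88% and 0.966% of all tested events called there. None was called with *Hnrnpul1* knockdown, in Empty against NI, or in T7-TIA1 against Empty, where 0.33%, 0.0216%, and 0.00329% of all tested events were. At an unadjusted p under 0.05 these last 3 comparisons held 44 of 239, 34 of 202, and 5 of 202 member events, beside 13.4%, 13.2%, and 6.18% of all tested events.

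The event that met the rule was the *Tgfbr2* exon of 75 nt printed above, which separates the long from the short form of the type II receptor. Its PSI was 31.5 and 31.4 in Empty and 48.1 and 42.8 in T7-TIA1, from 424 to 513 reads per library. The difference was 14 PSI with 11.3 PSI between the nearest libraries, 0.86 ± 0.14 on the log2 ratio of reads, and the read-level test gave an adjusted p of 0.713 over all events by limma (unadjusted 0.000563). Without any single library the adjusted p ran from 0.686 to 0.912, and with events of a mean PSI from 5 to 95 alone it was 0.269. The exon was thus included more in both T7-TIA1 libraries than in any of the other 16, of which the highest was 39.6. With *Hnrnpul1* knockdown its PSI was 31.1 and 34.6 for shUL1#1 and 38.2 and 39.6 for shUL1#2 against 24.7 and 30.3 in shSCR, a difference of 8.4 PSI with the nearest libraries 0.79 PSI apart (0.57 ± 0.17, adjusted p = 0.192). *Cpsf3* knockdown (24.7, 28.0, 28.3, and 31.1) overlapped with shSCR, and NI cells (31.8 and 23.9, and 28.1 and 29.3 in the other dataset) did as well. The level of *Tgfbr2* RNA was 189 and 190 scaled CPM in T7-TIA1 and 174 and 204 in Empty.

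**Figure D4:**
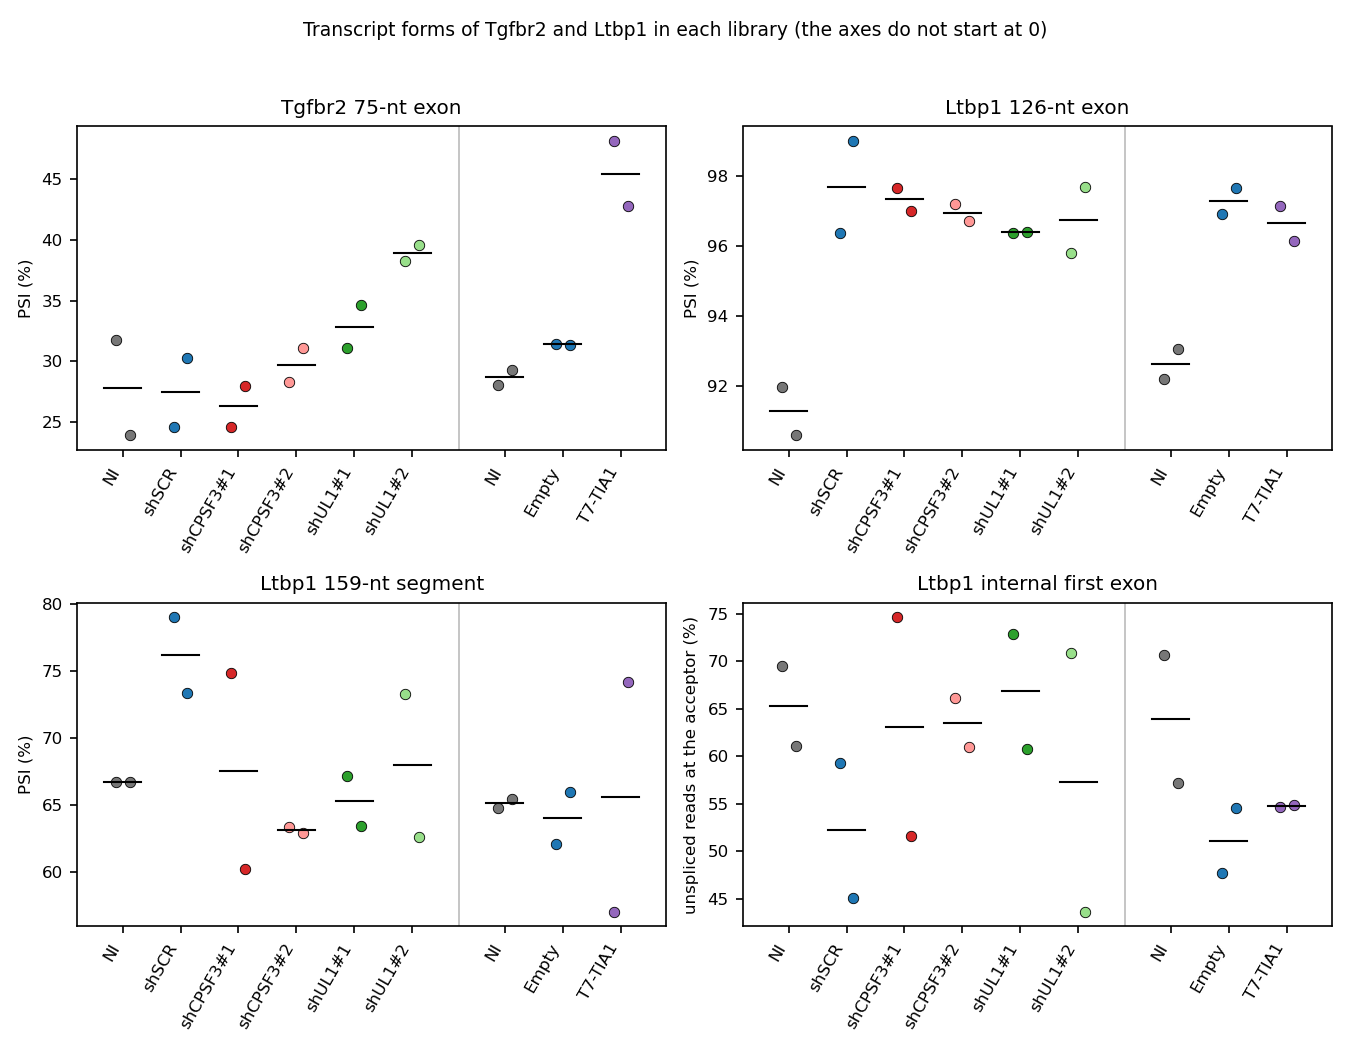
PSI of the *Tgfbr2* 75-nt exon, the *Ltbp1* 126-nt exon, and the *Ltbp1* 159-nt segment, and the percent of unspliced reads at the acceptor behind the internal first exon of *Ltbp1*, with 1 point per library and a line at each group's mean (the axes do not start at 0). T7-TIA1 has the highest *Tgfbr2* exon values (48.1 and 42.8), and the 126-nt exon is lower in the 4 NI libraries (90.6 to 93.0) than in the day 12 libraries (95.8 to 99.0).

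Of the 7 events called in shSCR against NI, 6 lie in *Ltbp1*, a protein built largely of EGF-like repeats, and 1 in *Tgfbr3*. A pair of the 6 are the 2 sides of the same donor choice, with mirrored values. The *Ltbp1* exon of 126 nt had a PSI of 92.0 and 90.6 in NI and 96.4 and 99.0 in shSCR, a difference of 6.39 PSI (1.71 ± 0.37 on the log2 ratio, limma, adjusted p = 0.0457, lost without each of the 4 libraries). The other dataset gave 92.2 and 93.0 in NI against 96.9 and 97.6 in Empty (1.46 ± 0.20, adjusted p = 0.112). The day 12 values with shRNAs against *Cpsf3* and *Hnrnpul1* (95.8 to 97.7) and with T7-TIA1 (97.1 and 96.1) stayed above all 4 NI libraries. A second *Ltbp1* exon of 123 nt went from 96.9 and 96.8 to 100 in both shSCR libraries (adjusted p = 0.0319, 0.0914 to 0.189 without single libraries). Of the 7 events 5, and both events called with *Cpsf3* knockdown, differed by less than 2 PSI. In simulated data for shSCR against NI, events that had not been changed outnumbered changed ones among the calls of the read-level test over all events. This was not so in a separate fit of events from 5 to 95 PSI. The levels of *Ltbp1* and *Tgfbr3* also differed between NI and shSCR. The part of either in the calls was not tested. None of these 9 calls held without every single library in turn, and among events with a mean PSI from 5 to 95, 15 or 16 of which lie in the members, none was called, where 16.5% of all such events were called in shSCR against NI, 9.44% with *Cpsf3* knockdown, 6.03% with *Hnrnpul1* knockdown, 3.85% in Empty against NI, and 0.12% in T7-TIA1 against Empty. At an unadjusted p under 0.05 these comparisons held 4, 2, 3, 1, and 1 member events, of 15 in the knockdown dataset and 16 in the other (the first 4 are the sides of 2 choices and the next 2 those of 1), beside 29.8%, 24.1%, 19.9%, 17.8%, and 5.94% of all such events.

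The *Ltbp1* segment of 159 nt, chosen after its values were seen, had a PSI of 66.7 in both NI libraries and 79.0 and 73.4 in shSCR, a difference of 9.45 PSI with 6.64 PSI between the nearest libraries, just under the minimum of 10 (limma, adjusted p = 0.27). It had 74.8, 60.2, 63.4, and 62.9 with the *Cpsf3* shRNAs, a difference of −10.9 PSI from shSCR with overlapping libraries (adjusted p = 0.235), and 67.2, 63.5, 73.3, and 62.7 with those against *Hnrnpul1* (−9.55 PSI, adjusted p = 0.361). The 2 shSCR libraries were above NI, and the overexpression dataset gave 64.8 and 65.5 in NI, 62.1 and 66.0 in Empty, and 57.1 and 74.2 in T7-TIA1.

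*Ltbp1* is transcribed from an upstream start, which gives the long form of the protein, and from an internal start, which gives the short form. In the annotation Ltbp1-201 starts at chr17:75005568, and Ltbp1-203 and Ltbp1-202 start at chr17:75178810 and chr17:75178911, inside the intron of 27602 nt (chr17:75151435-75179036) that separates exons of the long form. The reads across the ends of this intron, also chosen after their values were seen, were therefore compared. The donor end held 0 to 2 unspliced reads in every library, while the acceptor end held 58 to 520, where RNA from the internal start would lie. Unspliced reads made up 69.5% (95% Wilson interval 66.0 to 72.8) and 61.1% (57.6 to 64.4) of the reads at the acceptor in NI, and 59.3% (53.0 to 65.4) and 45.1% (37.1 to 53.3) in shSCR. In the other dataset they were 70.7% and 57.1% in NI, 47.7% and 54.5% in Empty, and 54.7% and 54.9% in T7-TIA1. The share was higher in both NI libraries than in shSCR and, in the other dataset, than in Empty and T7-TIA1, but the counting intervals of the nearest libraries overlapped, and the read-level test of this intron called neither shSCR nor Empty against NI (limma, adjusted p = 0.545 and 0.372). The libraries with shRNAs against *Cpsf3* and *Hnrnpul1* ran from 43.7% to 74.6% and overlapped with both shSCR and NI. The intervals cover counting error only.

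The promoters of these starts are shown because reads from both lie in these counts. Both are the 250 bases before the start in RefSeq (GRCm38.p6), on the plus strand, with each CAGAC, the core of the SMAD3 and SMAD4 binding element, in capitals (as GTCTG where it lies on the other strand).
*Ltbp1* upstream promoter (chr17:75005279-75005528): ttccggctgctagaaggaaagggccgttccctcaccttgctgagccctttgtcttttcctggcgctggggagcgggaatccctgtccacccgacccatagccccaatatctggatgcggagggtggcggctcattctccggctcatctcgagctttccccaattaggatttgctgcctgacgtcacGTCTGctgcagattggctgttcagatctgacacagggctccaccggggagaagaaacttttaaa
*Ltbp1* internal promoter (chr17:75178531-75178780): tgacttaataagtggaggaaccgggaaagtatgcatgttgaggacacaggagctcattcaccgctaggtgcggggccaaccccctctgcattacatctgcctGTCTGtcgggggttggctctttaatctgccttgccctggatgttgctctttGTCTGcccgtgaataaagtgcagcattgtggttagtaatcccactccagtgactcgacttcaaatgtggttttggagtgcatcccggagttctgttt
The upstream promoter holds 1 CAGAC in 56.8% GC and the internal promoter 2 in 50.8% GC, where 42.2% of 32851 promoters hold at least 1 on either strand. Among the other members with an entry, *Tgfb2* holds 2, *Tgfbr2* 1, and the second start of *Tgfbr1* 1, while *Tgfb1*, *Smad3*, and the first start of *Tgfbr1* hold none. The palindrome GTCTAGAC (0.167% of promoters) and the AP-1 motif TGANTCA (6.75%), both searched on both strands, occur in none of the windows searched, which do not include *Tgfb3*, *Tgfbr3*, and *Smad7*.

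Across the 12 knockdown libraries, the listed gene most like a member in log2(scaled CPM + 1) was *Srxn1* for *Tgfb1* (Pearson r = 0.985), *Selenos* for *Tgfb2* (0.987), *E2f6* for *Tgfb3* (0.990), *Daam2* for *Tgfbr1* (0.919), *Smarca2* for *Tgfbr2* (0.986), *Xdh* for *Tgfbr3* (0.993), *Reep4* for *Smad7* (0.971), and *Ap2s1* for *Ltbp1* (0.986). Among the members, *Tgfbr2* and *Tgfbr3* (r = 0.909) and *Tgfb3* and *Ltbp1* (0.851) ran together, and *Tgfbr2* and *Smad7* (−0.910) ran opposite. These correlations describe 12 libraries that fall into NI and day 12 groups and share their scaling.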

How the data were processed

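RNA was sequenced from stranded poly(A) libraries, 2 for each of 9 groups. The authors mapped reads to mm10 with *STAR* 2.7.1a, scaled gene counts to CPM with *edgeR* 3.16.5, and kept genes above a level and a coefficient of variation, which raises the share of listed genes that differ. The deposited expression values are a signal, CPM relative to a library size scaled per library. They are whole multiples of one step in each library (tolerance 0.02), taken as 1 read, although no listed value is small enough to check this on single reads. On that reading the listed genes held 98882289 to 109047542 reads per library. For splicing, the authors ran *vast-tools* on stranded reads and deposited PSI, a percent, beside coverage scores and reads for every event and library.

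Differences in log2(scaled CPM + 1) were tested two-sided with the trend method of *limma* 3.58.1 (R 4.3.3), fitting every group of a dataset together and adjusting over all listed genes, at 0.05. The datasets were fitted separately, since they were filtered and scaled separately. For each factor its 2 shRNAs were averaged and set against shSCR. Events with at least 10 reads (score VLOW or better) in every library of a dataset were used. Their read-level test took log2 of (inclusion + 1)/(exclusion + 1) reads into a robust *limma* fit with weights of 1/(counting variance + 0.04), over events whose PSI varied. Both tests were tested on simulated data. There the read-level test over all events recovered a low share of the changed events, so an event without a call may still have changed. Counts and intervals came from Python 3.11.15 (pandas 2.3.3, NumPy 2.4.6, SciPy 1.17.1).

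The members, the pathway lists, and the markers were chosen with earlier results of these data known. From the lists, up to 4 called genes with the largest absolute change per list and comparison are named, apart from some that are not reported here. From the events, those meeting the ∆PSI rule, those called, and the *Tgfbr2* exon are named, and others are named as chosen after their values were seen. Comparisons within a dataset share groups. Alternatives were other pseudocounts (0.5 and 5), a minimum mean of 10, plain CPM, a fit of only the groups compared, a replicate block, stricter coverage, other PSI limits, and leaving out each library. The labels number the libraries of every group 1 and 2 without saying what a number shares. Replicate differences correlated across genes at r = 0.674 to 0.949 in all 10 pairs of day 12 groups of the knockdown dataset, so that blocked values are given beside the knockdown results they change.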

Additional observations from a re-analysis of the deposited data

Results flagged for a closer look

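A pair of genes of the activin and BMP list moved in opposite directions from day 0 to day 12 in the 2 datasets, with no overlap between the libraries of the groups, and were picked out for that. *Bmp4*, a ligand of the BMP branch, had 59.9 and 62.8 scaled CPM in NI and 27 and 37.5 in shSCR (log2 fold change −0.93), but 20.1 and 32.3 in NI and 43.6 and 62.2 in Empty of the overexpression dataset (1.00). *Grem1*, a BMP antagonist, had 91.6 and 95 in NI and 866 and 116 in shSCR (1.76), but 149 and 307 in NI and 112 and 149 in Empty (−0.73). For *Grem1* the first NI and second Empty libraries are equal as printed, and the fall rests largely on the second NI library, as the rise in shSCR does on the first shSCR library, since the second (116) was near NI. The difference between the datasets was not tested, since their tables were scaled separately, and infection (lentiviral shRNA or retroviral vector) differs between them. No member of the main set was picked out in this way.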

How the results depend on the processing

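Pseudocounts of 0.5 and 5 and a minimum mean of 10 changed no call or direction of the 9 genes in the 5 comparisons in which all were run (between the knockdowns only the pseudocount of 5 was). Plain CPM ended the call of *Tgfbr1* in shSCR against NI (adjusted p = 0.094) and with *Cpsf3* knockdown (0.115), and reversed *Smad3* in Empty against NI (0.17) and *Tgfbr2* in T7-TIA1 against Empty (−0.0018), neither called. With only the groups compared in the fit, 344 genes were called with *Cpsf3* knockdown, 145 with *Hnrnpul1* knockdown, and 2 in T7-TIA1, *Tgfb1* lost its call in shSCR against NI (adjusted p = 0.0757), and splicing calls were 1465 with *Cpsf3* and 319 with *Hnrnpul1* knockdown and 122 in Empty against NI, from smaller fits. That fit ended 5 of the 7 member event calls in shSCR against NI, the *Ltbp1* exon of 126 nt among them (adjusted p = 0.0563), and 1 of 2 with *Cpsf3* knockdown. The labels number the libraries of every group 1 and 2 without saying what a number shares. The differences between replicates correlated across genes at r = 0.674 to 0.949 between day 12 groups of the knockdown dataset, −0.127 to 0.0218 between NI and those groups, and 0.171 to 0.308 in the overexpression dataset. A replicate block moved the genes called to 4698 with *Cpsf3* knockdown, 2768 with *Hnrnpul1* knockdown, and 70 between them, and the events called in Empty against NI to 416. Of the 92 pathway genes it called 45 higher and 3 lower with *Cpsf3* knockdown and 37 higher and 1 lower with *Hnrnpul1* knockdown (15 and 0 of the targets). It added calls of *Tgfb3* (*Cpsf3* knockdown, adjusted p = 0.0469), *Tgfb2* and *Ltbp1* (*Hnrnpul1* knockdown, 0.00976 and 0.0458), and *Tgfbr3* (Empty against NI, 0.0219), raised the member events called from 7 to 11 in shSCR against NI and from 2 to 4 with *Cpsf3* knockdown (the *Ltbp1* donor MmuALTD1000755 among them, 0.0449), and reversed the uncalled *Tgfbr3* intron MmuINT0159454 with *Cpsf3* knockdown (−0.011). Tests of PSI in percent called 3501 events in shSCR against NI, 1648 with *Cpsf3* knockdown, 17 in Empty against NI, and 0 in T7-TIA1 against Empty. They ended 4 member calls in shSCR against NI (adjusted p 0.0618 to 0.916) and both with *Cpsf3* knockdown (0.0556 and 0.196), and MmuINT0159454 (0.04) and the *Ltbp1* intron MmuINT0093661 (−0.02) of Empty against NI reversed. Limiting events to a mean PSI from 5 to 95, an alternative chosen after seeing the data, gave 5039 calls in shSCR against NI, 1837 with *Hnrnpul1* knockdown, 1218 in Empty against NI, and 38 in T7-TIA1 against Empty. A minimum of 15 PSI left 2267 (shSCR), 778 (*Cpsf3*), 598 (*Hnrnpul1*), 1264 (Empty), and 406 (T7-TIA1) events, and no minimum distance gave 2964 with *Cpsf3* knockdown, 2428 with *Hnrnpul1* knockdown, and 1662 in T7-TIA1. The cause of these differences was not tested.

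Leaving out single libraries gave 2613 to 3387 called genes in shSCR against NI, 591 to 3225 with *Cpsf3* knockdown, 158 to 728 with *Hnrnpul1* knockdown, 0 to 7 between them, 1473 to 5978 in Empty against NI, and 0 in T7-TIA1 against Empty. The called events were 1218 to 3618, 426 to 1532, 78 to 848, 0, and 0 in the order shSCR, *Cpsf3*, *Hnrnpul1*, Empty, and T7-TIA1, and the events meeting the ∆PSI rule 5471 to 5924, 1643 to 3092, 1388 to 2761, 3248 to 5100, and 2068 to 2834. Members not called in the fit of all libraries that changed sign had these ranges of log2 fold change: *Tgfb1* −0.013 to 1.01 and *Tgfbr3* −0.14 to 1.22 with *Cpsf3* knockdown, *Tgfb1* −0.56 to 0.47 and *Tgfbr3* −0.093 to 1.26 with *Hnrnpul1* knockdown, and, between the knockdowns, *Smad3* −0.064 to 0.085, *Smad7* −0.032 to 0.095, *Tgfb3* −0.081 to 0.34, *Tgfbr3* −0.34 to 0.25, and *Tgfbr2* −0.24 to 0.051. In Empty against NI they were *Tgfbr2* −0.045 to 1.05, *Smad7* −1.33 to 0.27, and *Smad3* −0.11 to 0.090, and in T7-TIA1 against Empty *Tgfbr2* −0.11 to 0.12, *Tgfb3* −0.41 to 0.040, *Tgfbr1* −0.17 to 0.072, *Smad7* −0.12 to 0.19, *Tgfb2* −0.28 to 0.049, and *Smad3* −0.11 to 0.053. Events that changed sign, on the log2 ratio of reads, were the *Tgfbr2* exon in shSCR against NI (−0.32 to 0.25) and with *Cpsf3* knockdown (−0.17 to 0.24), MmuINT0159454 with *Cpsf3* (−0.27 to 0.14) and *Hnrnpul1* knockdown (−0.23 to 0.28) and in T7-TIA1 (−1.11 to 0.11), the *Ltbp1* exon of 126 nt with *Cpsf3* (−1.34 to 0.35) and *Hnrnpul1* knockdown (−1.60 to 0.098), the *Ltbp1* segment of 159 nt in Empty (−0.19 to 0.048) and T7-TIA1 (−0.42 to 0.67), and in T7-TIA1 the *Tgfbr3* intron MmuINT0159468 (−1.27 to 1.40) and the *Ltbp1* exon of 123 nt (−3.94 to 0.40). None of these events was called in those comparisons.

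The 2 planned *edgeR* settings per comparison of expression were not run. With 2 libraries per group the design allows no exact permutation test under the threshold. Depth was high for all members, but event PSI near the minimum of 10 reads carries a wide counting error.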
